A study of Mus musculus with 12 samples.

Results

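The glypicans (*Gpc1* to *Gpc6*) and the syndecans (*Sdc1* to *Sdc4*) were followed in the corneal endothelium of mice, as 10 genes of the 15838 with a value. These genes were picked by symbol as the members of both families. The families were chosen by the p-value of *Gpc3*, as a gene that falls in *Slc4a11*-/- mice, in the authors' own genotype comparison. That comparison is not used here. Total RNA came from corneal endothelial cells (CEC) still attached to the Descemet membrane, their basement membrane, of mice aged 10 weeks, and was measured by RNAseq. There were 12 libraries, with 3 in each of 4 groups: *Slc4a11*+/+ (WT) male, *Slc4a11*+/+ female, *Slc4a11*-/- (KO) male and *Slc4a11*-/- female. Per the paper's methods, the KO mice lack exons 9 to 13 of *Slc4a11* through a targeted deletion, which encodes a membrane transporter mutated in congenital hereditary endothelial dystrophy, on a C57BL/6 background, and the WT mice are their littermates. The sample records describe Descemet membranes pooled within a genotype, whereas the methods describe the pair of membranes of a mouse, so a library may hold more than 1 mouse.

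The files give 1 value per gene that can be reported, the authors' mean log2 CPM, taken to run over the libraries of all 4 groups since the fit held them all and the value is equal in the 3 tables. The levels below are therefore averages over WT and KO and over males and females. They carry no standard deviation, library depths are not known from the tables, and no difference between genotypes or sexes was tested. The mean of a gene that differed between the groups lies between its group levels. In bulk tissue, fewer cells of a type and less RNA per cell cannot be told apart.

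Glypicans and syndecans are the main cell surface proteoglycans that carry heparan sulfate, a long sulfated sugar chain that binds growth factors, morphogens and matrix proteins. Glypicans are globular proteins tethered to the outer membrane by a glycosylphosphatidylinositol (GPI) anchor, and they tune Wnt, Hedgehog, BMP and FGF signals. Syndecans span the membrane, and their short cytoplasmic tails tie the matrix outside to the cytoskeleton and to adaptor proteins inside.

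All 10 members had a mean of at least 1 CPM, as did 91.0% of all genes, and 8 of them had at least 10 CPM, as did 55.6% of all genes. Of the members, 8 also lay above the median gene, both in CPM (median 3.76 on the log2 scale) and per kilobase (median 1.79). *Gpc4* and *Sdc4* stood at the top, at 1284 and 1103 CPM, and after division by length they were higher than 99.8% and 99.7% of all genes. *Gpc2* and *Gpc5* stood at the bottom, at 2.17 and 2.06 CPM. A CPM here is 2 raised to the mean log2 CPM, that is, about a geometric mean over the libraries.

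**Figure D1:**
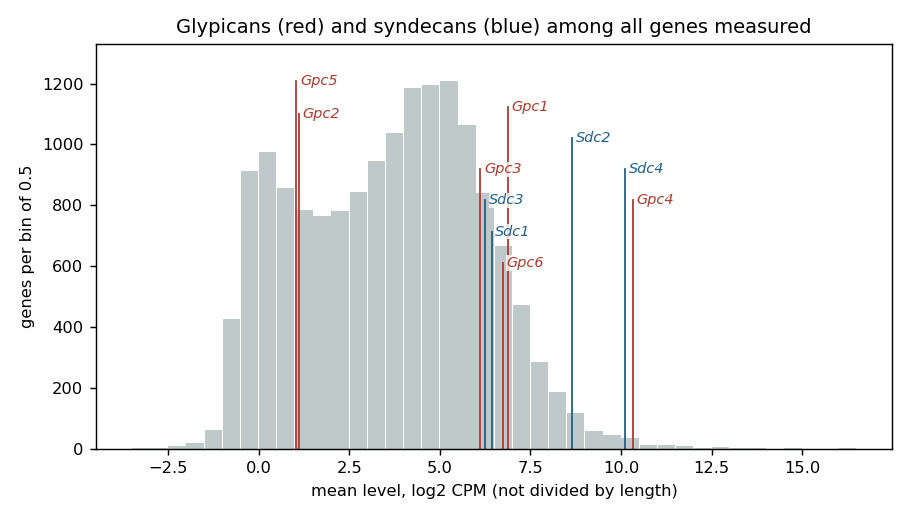
Number of genes (vertical axis, in bins of 0.5) by mean level in log2 CPM, not divided by length (horizontal axis), over all 15838 genes, with a line at the level of each glypican (red) and syndecan (blue). *Gpc5* and *Gpc2* lie near 1, *Gpc3*, *Sdc3*, *Sdc1*, *Gpc6* and *Gpc1* lie between 6.12 and 6.87, and *Sdc2*, *Sdc4* and *Gpc4* lie in the upper tail.

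Longer transcripts yield more reads, so the order of the members and the ratios between them are given after the CPM was divided by the length of the union of the gene's annotated exons, in kilobases. The place of a member among all genes is given in CPM and per kilobase. On this scale the order from high to low was *Gpc4*, *Sdc4*, *Sdc2*, *Gpc3*, *Gpc1*, *Sdc1*, *Gpc6*, *Sdc3*, *Gpc2* and *Gpc5*. The spread between libraries is not known for these means, so it cannot be said which neighbours in this order differ beyond their spread. The choice of length alone changed the order. With the longest transcript, *Gpc5* stood above *Gpc2* and the other places were as before. With the coding length the order was *Sdc4*, *Gpc4*, *Sdc2*, *Sdc1*, *Gpc1*, *Gpc6*, *Sdc3*, *Gpc3*, *Gpc2* and *Gpc5*.

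Among the glypicans, *Gpc4* (ENSMUSG00000031119) made up most of the family signal. This gene, which encodes a glypican known as a modulator of FGF and Wnt signals, has 9 exons and spans chrX:52053021-52165252 (minus strand, GRCm38). It reached 484 CPM per kilobase, which is 88.0% of the sum of 550 over the 6 glypicans. Its level per kilobase was 18.7 times that of *Gpc3*, 21.3 times that of *Gpc1* and 29.3 times that of *Gpc6*. With the coding length in place of the exon length, these ratios were 19.2, 11.0 and 12.2.

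*Gpc3* (ENSMUSG00000055653) encodes a glypican that restrains Hedgehog signalling and whose loss causes the overgrowth of Simpson-Golabi-Behmel syndrome. The gene has 8 exons and lies beside *Gpc4* at chrX:52272426-52613950 (minus strand), with a gap of 107 kb and no annotated protein-coding gene between them. Its level was 69.6 CPM (6.12 log2 CPM), higher than 83.8% of all genes in CPM and 92.3% per kilobase. Divided by its exon length of 2690 bases, this came to 25.9 CPM per kilobase, or 4.70% of the glypican sum and the second largest share after that of *Gpc4*. These values are means over WT and KO, and *Gpc3* was picked as a gene that falls in KO. Its level and its place among the glypicans within either genotype are not known here. *Gpc1* and *Gpc6* had higher CPM than *Gpc3* but longer exons, 5159 and 6425 bases. Divided by coding length, *Gpc1* was 1.75 times and *Gpc6* 1.57 times as high as *Gpc3*, so the order of these 3 genes turned with the length that was used.

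*Gpc1* (ENSMUSG00000034220), a glypican that binds FGF and is common in many adult tissues, spans chr1:92831645-92860779 (plus strand). It had 117 CPM and 22.7 CPM per kilobase, 4.12% of the glypican sum. *Gpc6* (ENSMUSG00000058571), the closest relative of *Gpc4* within the family and a regulator of bone growth, spans chr14:116925315-117976544 (plus strand). It had 106 CPM and 16.5 CPM per kilobase, 3.01% of the sum.

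The remaining glypicans had low levels, with 21.7% of all genes below *Gpc2* and 21.0% below *Gpc5* in CPM, and 12.7% and 11.5% per kilobase. *Gpc5* (ENSMUSG00000022112), from the same subfamily as *Gpc3*, lies upstream of *Gpc6* at chr14:115092215-116525179 (plus strand), with a gap of 400 kb and no annotated protein-coding gene between them. The gene is 1433 kb long and had 2.06 CPM, or 0.462 CPM per kilobase. Although they are neighbours on 1 strand, *Gpc6* was 35.8 times as high as *Gpc5* per kilobase (59.0 times by coding length), and on chromosome X *Gpc4* was 18.7 times as high as *Gpc3*. *Gpc2* (ENSMUSG00000029510), known from the developing nervous system, spans chr5:138273655-138280005 (minus strand). It had 2.17 CPM and 0.508 CPM per kilobase. *Gpc2* and *Gpc5* held 0.0924% and 0.0839% of the glypican sum.

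**Figure D2:**
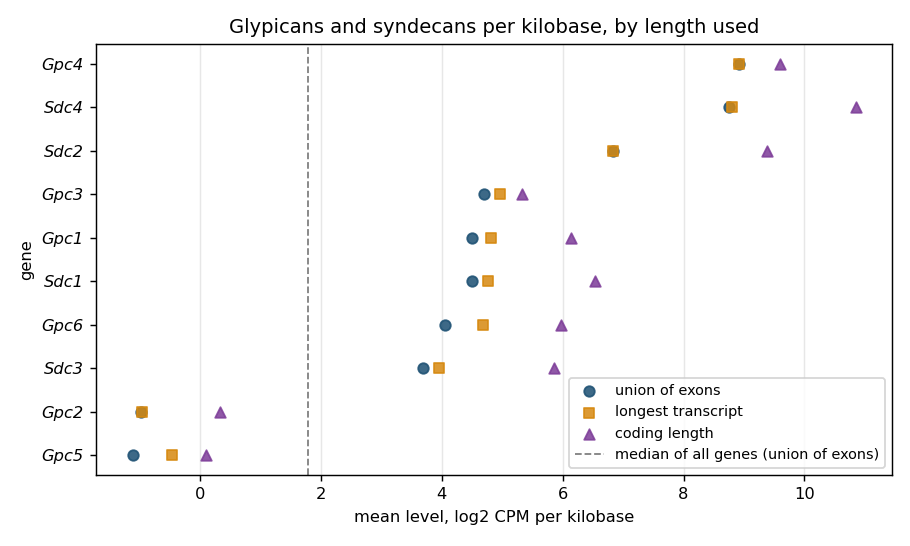
Mean level in log2 CPM per kilobase (horizontal axis) of each member (vertical axis), with the length taken as the union of exons (circles), the longest transcript (squares) or the coding length (triangles). The dashed line is the median of all genes by the union of exons, 1.79, so only the circles compare with it like for like. *Gpc4*, *Sdc4* and *Sdc2* lie above the others under every length, *Gpc2* and *Gpc5* lie below 0.4 under every length, and the triangles put *Sdc4* above *Gpc4*.

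All 4 syndecans lay above the median gene. *Sdc4* (ENSMUSG00000017009) encodes a syndecan that sits in focal adhesions and activates protein kinase C alpha. It has 5 exons and spans chr2:164424247-164443887 (minus strand). It reached 433 CPM per kilobase, 74.3% of the syndecan sum of 583. *Sdc4* was close to *Gpc4* on this scale, which was 1.12 times as high by exon length and 0.414 times as high by coding length.

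*Sdc2* (ENSMUSG00000022261), a syndecan of mesenchymal cells, spans chr15:32920723-33034935 (plus strand). It had 404 CPM and 114 CPM per kilobase, 19.6% of the syndecan sum, and 98.3% of all genes lay below it in CPM and 98.8% per kilobase. *Sdc4* was 3.79 times as high per kilobase.

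*Sdc1* (ENSMUSG00000020592), the main syndecan of epithelia and of plasma cells, spans chr12:8771323-8793715 (plus strand). Its level was 86.0 CPM and 22.6 CPM per kilobase, or 3.87% of the sum. *Sdc3* (ENSMUSG00000025743), known from nerve and muscle, spans chr4:130792537-130826319 (plus strand). It was the lowest syndecan, with 76.9 CPM and 12.8 CPM per kilobase, or 2.20% of the sum. *Gpc4* and *Sdc4* together held 80.9% of the signal of the 10 members per kilobase.

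Reads can be assigned to a member only where its sequence is its own. Each member's transcript with the longest coding part was cut into all windows of 50 bases, the read length in the sample records, and searched for on either strand in the transcripts of every other gene of GENCODE M21. No window of a member occurred in another member. *Gpc3*, *Gpc4*, *Gpc6* and *Sdc4* shared none with any other gene. *Gpc2* shared 89.8% of its windows with *Gm43720*, an annotated gene that overlaps it on the same strand, so the level of *Gpc2* is uncertain. *Gpc1* shared 22.5% with *Ankmy1*, and *Sdc3* shared 6.46% with *Gm26716*, which overlap them on the opposite strand. The library kit keeps the strand, but whether the counting used it is not given in the sources used here. The other 3 members shared at most 2.19%.

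The region around the annotated start was read for 7 of the 10 members from RefSeq (GRCm38.p6), from 250 bases before the start to 50 after it. Among these 7 promoters the number of CpG dinucleotides, where transcription starts of broadly used genes often cluster, ran from 14 in *Sdc1* to 44 in *Sdc3*, against a median of 7 over 32851 promoters. The glypicans with the highest and the lowest level and *Gpc3* are printed 5′ to 3′ on the gene's strand, picked after their levels were seen, with each CpG in capitals. They lie on the minus strand at chrX:52164874-52165173 for *Gpc4*, the minus strand at chrX:52613925-52614224 for *Gpc3* and the plus strand at chr14:115091965-115092264 for *Gpc5*.
Gpc4: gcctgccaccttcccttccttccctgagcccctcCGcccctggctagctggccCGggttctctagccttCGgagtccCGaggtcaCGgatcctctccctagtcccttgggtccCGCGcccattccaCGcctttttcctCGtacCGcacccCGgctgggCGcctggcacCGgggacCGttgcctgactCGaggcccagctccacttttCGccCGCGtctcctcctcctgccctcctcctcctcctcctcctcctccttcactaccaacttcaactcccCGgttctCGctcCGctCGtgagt
Gpc3: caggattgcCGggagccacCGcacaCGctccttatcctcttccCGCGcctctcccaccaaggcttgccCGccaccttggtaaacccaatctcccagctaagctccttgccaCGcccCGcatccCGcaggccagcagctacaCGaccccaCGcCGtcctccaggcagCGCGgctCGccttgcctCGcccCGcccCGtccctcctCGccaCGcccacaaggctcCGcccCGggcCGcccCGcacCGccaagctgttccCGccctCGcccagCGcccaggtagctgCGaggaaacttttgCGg
Gpc5: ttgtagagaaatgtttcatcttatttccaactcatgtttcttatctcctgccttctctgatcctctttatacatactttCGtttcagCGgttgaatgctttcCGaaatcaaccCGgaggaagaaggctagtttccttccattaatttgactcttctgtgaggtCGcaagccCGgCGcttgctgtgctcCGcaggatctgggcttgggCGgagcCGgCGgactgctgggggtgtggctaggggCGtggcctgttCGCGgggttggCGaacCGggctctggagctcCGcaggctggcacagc

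*Gpc4* has 22 CpG in this window, *Gpc3* has 30 and *Gpc5* has 17. The window of *Gpc3* thus held more CpG than that of *Gpc4*, the gene with the higher level. However, the windows of *Gpc4* and *Sdc4* lie wholly inside the gene spans given above. For these genes the RefSeq start is downstream of the GENCODE start, so the region before the GENCODE start was not read. The letters GGGCGG, on either strand, occurred in all 7 promoters and in 35.7% of all promoters. The letters TATAAA, on either strand, occurred in that of *Gpc5* alone among the 7 and in 13.6% of all promoters. A match describes the sequence and is not evidence of a factor's binding.

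A core protein carries heparan sulfate only if the cell builds the chain, so the genes for its synthesis, sulfation and trimming were described. Genes for core protein cleavage and for partners of the syndecan tail were added. Together these made 7 lists of 47 genes, of which 39 had a value. Of these, 38 had at least 1 CPM and 31 at least 10 CPM, thresholds that 91.0% and 55.6% of all genes passed. By median level per kilobase the core proteins stood at 4.28 (glypicans) and 5.67 (syndecans) on the log2 scale, compared with 1.79 over all genes.

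The linkage sugars that join the chain to the core protein are added by xylosyl-, galactosyl- and glucuronyltransferases. All 6 genes of this list were at or above 10 CPM, and they ran from 3.67 CPM per kilobase for the xylosyltransferase *Xylt1* to 11.9 for the xylose kinase *Fam20b* and the glucuronyltransferase *B3gat3*. The other xylosyltransferase, *Xylt2*, had 10.6, and the galactosyltransferases *B4galt7* and *B3galt6* had 4.16 and 3.97. The polymerases that extend the chain, *Ext1* and *Ext2*, had 17.6 and 34.2 CPM per kilobase, and the related *Extl3*, which adds the first glucosamine, had 22.1. *Extl2*, another member of this family, had 11.0. *Extl1* had no value.

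Chain modification differed widely within the list of 16 genes, 11 of them with a value. *Ndst1*, which replaces acetyl with sulfate groups and so opens the chain to further sulfation, was the highest at 32.2 CPM per kilobase. *Ndst2* and *Ndst3* had 5.64 and 2.98. *Hs6st1* and *Hs2st1*, for sulfation at the 6-O and 2-O positions, had 15.3 and 12.9 CPM per kilobase. *Hs6st2*, also for the 6-O position, had 3.52, and *Glce*, the epimerase that turns glucuronic into iduronic acid, had 3.55. Of the 3-O-sulfotransferases, *Hs3st5* and *Hs3st1* had 8.09 and 8.03, whereas *Hs3st3b1* and *Hs3st3a1* had 0.477 and 0.397. *Ndst4*, *Hs6st3*, *Hs3st2*, *Hs3st4* and *Hs3st6* had no value. For the sulfate donor, *Papss1* had 19.5 CPM per kilobase and *Papss2* had 2.19. *Slc35b2* and *Slc35b3*, which carry the donor into the Golgi, had 13.2 and 2.78.

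*Sulf1* and *Sulf2* encode extracellular enzymes that remove 6-O-sulfate from finished chains. *Sulf1* was the highest gene of the 7 lists, at 36.9 CPM per kilobase (417 CPM), whereas *Sulf2* had 0.637 (3.74 CPM). The heparanase genes *Hpse* and *Hpse2* had no value. Among genes that cut the core protein, *Furin*, a convertase that cleaves glypicans, had 18.7 CPM per kilobase. The related convertases *Pcsk5* and *Pcsk6* had 8.25 and 0.735. The sheddases *Adam10* and *Adam17*, which release syndecan ectodomains, had 26.7 and 14.3. *Notum*, listed with these genes, had 0.272 CPM per kilobase (0.655 CPM) and was the lowest of the 39 genes with a value in the 7 lists. Inside the cell, the syndecan tail binds the adaptor syntenin, encoded by *Sdcbp*, which had 8.71 CPM per kilobase, and its partner ALIX, encoded by *Pdcd6ip*, had 21.3. *Cask*, another protein that binds the syndecan tail, had 11.2. The other genes of this list were *Gipc1* and *Tiam1*, at 14.2 and 0.787 CPM per kilobase, and *Sdcbp2*, at 0.01 log2 CPM per kilobase (1.40 CPM).

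**Figure D3:**
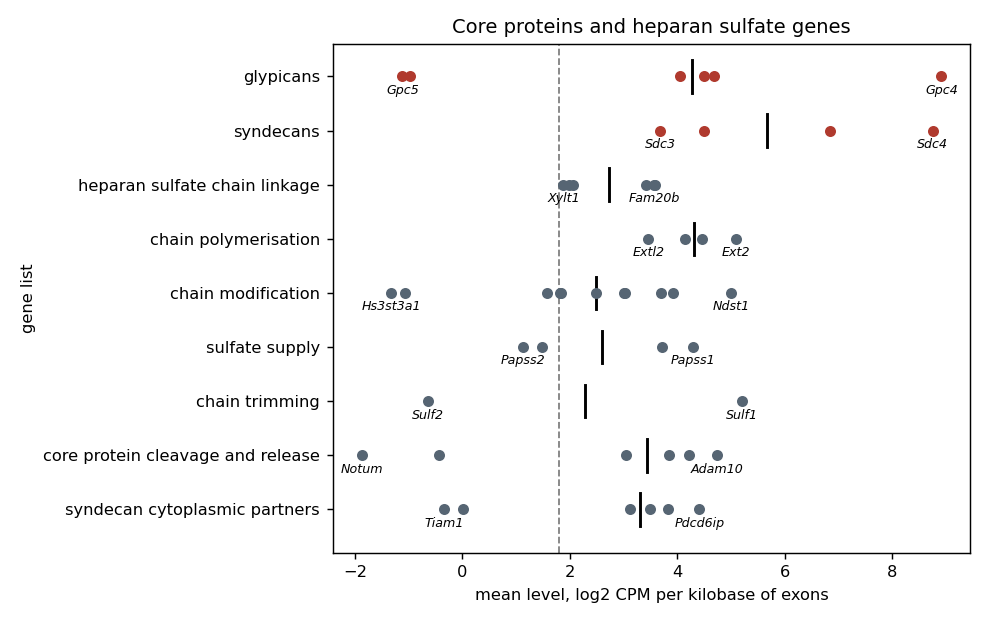
Mean level in log2 CPM per kilobase of exons (horizontal axis) of each gene with a value, for the core proteins (red) and the 7 lists (grey). The lists hold genes for the heparan sulfate chain, for core protein cleavage and for syndecan partners. A black bar marks the median of each list and a dashed line the median of all genes, and the lowest and highest gene are named. *Gpc4* and *Sdc4* lie above every gene of the 7 lists, and *Gpc5* and *Gpc2* lie below the median of all genes.

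The tissue label was checked against marker genes, counted at 10 CPM, a level that 55.6% of all genes reached. Of 10 markers of corneal endothelium, 9 had at least 10 CPM. Among them were *Col8a2* at 7100 CPM, *Atp1b1* at 2594 CPM and the targeted gene *Slc4a11* at 1676 CPM as a mean over KO and WT. *Slc16a3* was the lowest of the 9, at 35.4 CPM, and *Car12* had 3.15 CPM. Stromal keratocytes are the cells in front of the Descemet membrane. Their 6 genes had a median of 7.83 log2 CPM per kilobase, against 7.67 for the corneal endothelium list, and all 6 were at or above 10 CPM. *Col1a2*, *Col1a1* and *Dcn* had 4296, 3825 and 3796 CPM, *Lum* and *Kera* had 361 and 342, and *Ptgds* had 18.2. Of 8 markers of corneal epithelium, 4 had at least 10 CPM, a share close to that of all genes. They were *Aldh3a1* at 1065 CPM and the keratins *Krt5*, *Krt15* and *Krt13* at 34.8, 26.9 and 20.8 CPM. The others were *Krt12*, the keratin that defines corneal epithelium, at 6.07 CPM, *Krt14* at 4.55, *Trp63* at 3.74 and *Cdh1* at 0.995. Values were present for 5 of 6 iris pigment cell, 4 of 5 lens and 3 of 5 leukocyte genes, and none of these was at or above 10 CPM. For nerve 4 of 5 had a value and for vascular endothelium all 4, with 1 each at or above 10 CPM (*Mbp* and *Kdr*). For muscle only 2 of 5 had a value, *Myh11* and *Acta2* at 206 and 49.8 CPM, whereas *Des*, *Actg2* and *Cnn1* had none. The part of other cell types in the levels of glypicans and syndecans was not tested.

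**Figure D4:**
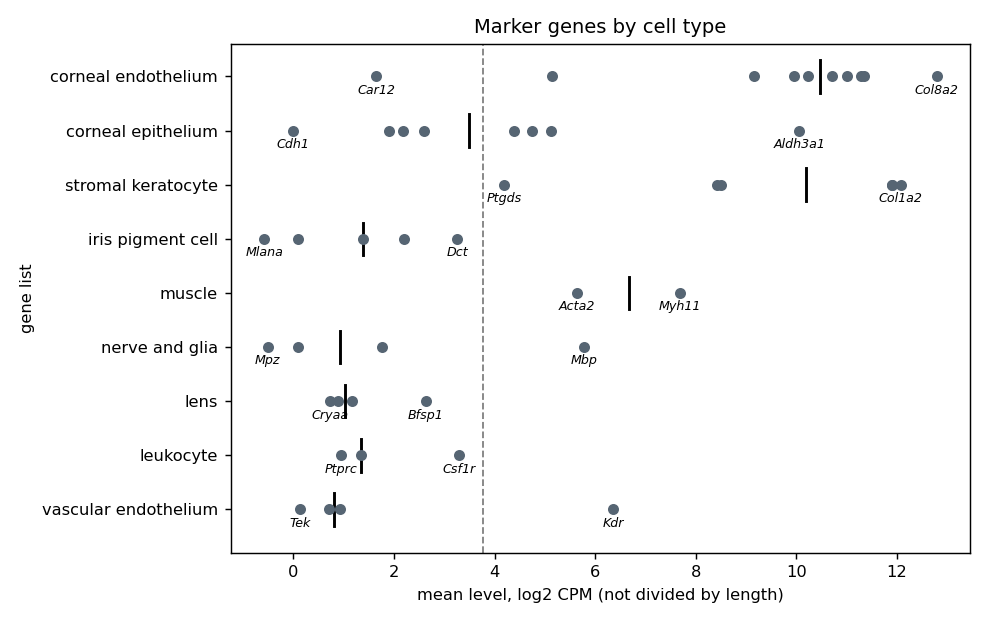
Mean level in log2 CPM, not divided by length (horizontal axis), of marker genes with a value, by cell type (vertical axis), with a black bar at each list's median, a dashed line at the median of all genes and the lowest and highest gene named. Medians of the corneal endothelium and stromal keratocyte lists are 10.47 and 10.19, and those of the iris pigment cell, nerve, lens, leukocyte and vascular endothelium lists are 1.39 or less.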

How the data were processed

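RNA from CEC with Descemet membrane was made into stranded libraries and sequenced from both ends. Per the labels and the paper's methods, reads were aligned to GRCm38/mm10 with HISAT2, converted to CPM with TMM normalization and fitted with limma and voom by genotype and sex. The versions, the counter, its annotation and the filter on low genes are not given in the sources used here. The authors deposited 3 tables of these fits with the same 15838 genes. Their mean log2 CPM, 1 value per gene, was equal in the 3 tables and is the only measurement used. The other columns hold the authors' own comparisons for genotype, sex and interaction (log2 fold change, moderated t, p-values and log-odds) and are not used. The fit planned for values per library was not run, since the tables hold none.

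Lengths and positions come from GENCODE M21 (GRCm38), which held 15824 of the genes. The level per kilobase is the mean log2 CPM minus log2 of the length in kilobases, computed with Python 3.11.15, pandas 2.3.3 and numpy 2.4.6. A run on simulated data checked the arithmetic only, not whether a length suits these data. Names were drawn by rule from the members, the targeted gene, and the marker and heparan sulfate lists. Every gene of the heparan sulfate lists is named, as is every gene of the corneal epithelium, stromal keratocyte and muscle lists. The other marker lists are given by counts and by examples picked after their values were seen. The members and lists were chosen with earlier results of these data known.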

Additional observations from a re-analysis of the deposited data

How the results depend on the processing

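With no value per library there is no spread to set a change against, so a level was taken as stable when it moved by less than 0.5 on the log2 scale, a percentage by less than 5 points and a count by less than 1.5 times. *Gpc4* was the highest glypican and *Sdc4* the highest syndecan with the union of exons, the longest transcript and the coding length. The share of *Gpc4* in the glypican sum was 88.0%, 84.9% and 81.4% under these, so it fell by more than 5 points with the coding length. That of *Sdc4* in the syndecan sum was 74.3%, 74.1% and 69.5%, within 5 points. With the longest transcript, 8 of the 10 levels per kilobase were stable and 2 rose, those of *Gpc5* and *Gpc6*. With the coding length, which leaves out UTRs, all 10 rose by more than 0.5 because the length is smaller. The percentage of genes below a member was stable for 8 of the 10 among genes of at least 1 CPM, all but *Gpc2* (13.9%) and *Gpc5* (13.1%). It was stable for 7 on the level per kilobase, all but *Gpc2* (12.7%), *Gpc3* (92.3%) and *Gpc5* (11.5%). At 1 CPM all 10 members passed, and at 10 CPM 8 passed.

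The planned fit of genotype and sex was not run, so no filter was varied and no replicate was left out. No paired analysis was possible because the tables carry no value per library. Depth per library is unknown, and no interval is given.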
